A study of Mus musculus with 12 samples.

Results

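The 9 genes described here encode the nuclear-made machinery that copies mitochondrial DNA (mtDNA), transcribes it and keeps its transcripts. They were chosen by name as Polg, Polg2, Ssbp1, Polrmt, Tfam, Tfb1m, Tfb2m, Lrpprc and Slirp, and all 9 have a row among the 23457 rows of the deposited count table. Polyadenylated RNA was sequenced from 12 adult mouse hearts on the C57BL/6J background. The 6 noninduced hearts came from mice with floxed alleles and no Cre, and the 6 Parkin KO hearts from mice with floxed alleles and MERCreMer, a tamoxifen-activated Cre, in which Parkin was deleted in the adult. Both groups are labelled 9 to 10 weeks after tamoxifen induction, and the comparison asked how the loss of Parkin, an E3 ligase that tags faulty mitochondria with ubiquitin, alters cardiac messenger RNA. Since only the Parkin KO group carried MERCreMer, effects of Parkin loss and of the recombinase cannot be told apart. The promoter that drives MERCreMer is not given in the sources used here, and the ages of the animals are given only as adult. The labels name whole heart as the tissue, while the protocol names the ventricular apex.

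Mitochondrial DNA is a small circular genome that encodes core subunits of the respiratory chain together with the ribosomal and transfer RNAs needed to make them. Every protein that copies or reads it is made from nuclear genes and imported. DNA polymerase gamma, made of the catalytic subunit Polg and the accessory subunit Polg2, copies the genome on single strands coated by Ssbp1. The RNA polymerase Polrmt starts transcription with Tfam, which also packages mtDNA into nucleoids, and with Tfb2m, while the related Tfb1m methylates the small ribosomal RNA. Lrpprc and its partner Slirp bind mature mitochondrial messengers and protect them. The heart, which lives by oxidative phosphorylation, holds many copies of this genome in each cell.

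The promoters of these genes are shown because genes for mitochondrial proteins are known to be controlled by GABP, an ETS family factor, and by NRF1. The windows reach from 250 bases before to 50 bases after each start in RefSeq (build GRCm38.p6), and all 9 genes matched. Searched on both strands were CCGGAAG for ETS factors such as GABP, GCGC followed by 2 bases of any kind and GCGC for NRF1, AAGATGG for YY1 and GGGCGG for SP1, and the ETS letters were chosen for display after the matches were seen. The ETS letters stood in the windows of 6 of the 9 genes, against 8.86% of all 32851 RefSeq windows and 16.2% of the 12340 windows of genes tested here. In each of these 6 genes a match began between 29 and 48 bases before the start. A match that began between 60 and 21 bases before the start was held by 2.35% of all windows and 4.52% of those of tested genes. This interval encloses the matches of these 6 genes, so its shares describe position and are no test of it. The stretches below run 5′ to 3′ on the strand of the gene, with CCGGAAG or its reverse complement CTTCCGG in capitals. For Polg, Ssbp1, Tfam and Slirp 30 bases are shown, as these matches lie in exons annotated by GENCODE, and for Polg2 and Polrmt the 110 bases before the start.
Polg: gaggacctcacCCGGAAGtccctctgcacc
Polg2: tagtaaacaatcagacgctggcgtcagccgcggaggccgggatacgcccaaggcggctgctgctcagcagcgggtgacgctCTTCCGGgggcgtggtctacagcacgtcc
Ssbp1: ggctccgtgcgCCGGAAGcgagccgctggc
Polrmt: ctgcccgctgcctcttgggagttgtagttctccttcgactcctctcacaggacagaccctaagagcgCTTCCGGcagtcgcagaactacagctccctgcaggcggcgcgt
Tfam: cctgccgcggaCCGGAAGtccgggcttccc
Slirp: aacagtttggcCCGGAAGcagaactcgaaa

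These stretches lie at chr7:79466293-79466322 for Polg (minus strand), chr11:106779538-106779647 for Polg2 (minus), chr6:40471410-40471439 for Ssbp1 (plus), chr10:79746582-79746691 for Polrmt (minus), chr10:71238073-71238102 for Tfam (minus) and chr12:87443837-87443866 for Slirp (plus). Slirp held 3 ETS matches, which began 146, 48 and 11 bases before the start, and the middle match is printed. Tfb1m, Tfb2m and Lrpprc held none. The NRF1 letters, present in 6.23% of all windows and 12.4% of those of tested genes, were found only in Polrmt, in 2 matches that overlap each other and the start. The YY1 letters, in 6.34% of all windows and 6.77% of those of tested genes, were found only in Slirp. The SP1 letters were found in 6 genes, against 35.7% of all windows and 62.0% of the windows of tested genes, a share near that of the 9 genes, and the 2 SP1 matches of Polg overlap each other. No ETS match overlapped a match of another motif. The letters are a description of the sequence and show no binding.

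**Figure D1:**
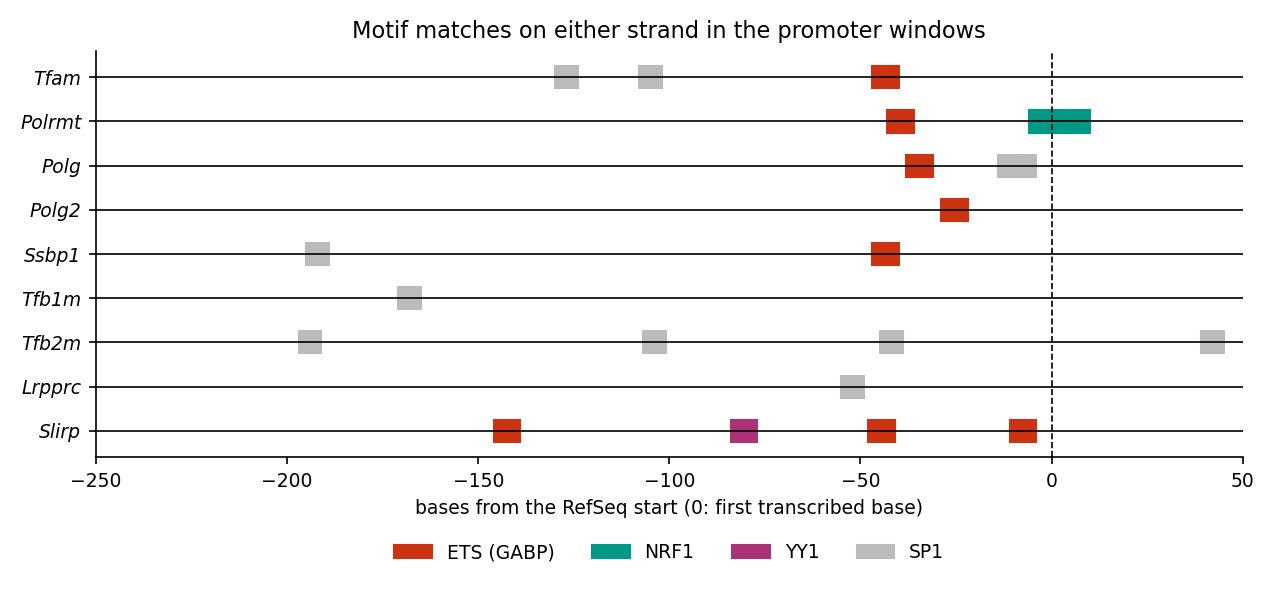
Positions of the 4 motifs in the promoter windows of the 9 genes, as bases from the RefSeq start (dashed line). Boxes are matches on either strand. In 6 genes a red ETS box begins between 29 and 48 bases before the start. Slirp has further red boxes that begin 146 and 11 bases before it, and Tfb1m, Tfb2m and Lrpprc have none.

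Total counts ran from 11610507 to 16884516 per library, and the groups did not differ in depth beyond their spread (exact two-sided permutation p = 0.665). Levels are given as counts scaled per 10⁶ (CPM) with TMM-scaled library sizes, on which 1 count was worth 0.0548 to 0.0948 CPM. Noninduced libraries 1 and 2 stood apart: the 13 messengers encoded by mtDNA took 15.2% and 15.4% of their counts, against 4.79 to 10.0% in the other 10 libraries. These 2 libraries also had the fewest total counts, 12755053 and 11610507, and the lowest TMM factors, 0.884 and 0.909. Esr1, whose row can take up reads from MERCreMer, ran from 1553 to 4683 CPM among Parkin KO libraries and from 24.0 to 962 CPM among noninduced ones, with 558 and 962 CPM in the libraries labelled noninduced 1 and noninduced 3. Reads of 4 Y-linked genes numbered 495 to 634 in Parkin KO libraries 2, 5 and 6, 178 in noninduced library 3 and at most 7 in the rest. Xist, the RNA of the inactive X chromosome, was at 0.704 to 5.25 CPM in those 3 Parkin KO libraries and at 84.2 to 133 CPM in the 8 libraries with at most 7 such reads. Noninduced library 3 held both, with Xist at 77.2 CPM, so its label as 1 control heart is uncertain, as is that of noninduced library 1 with its Esr1 reads, and whether they hold RNA of more than 1 animal was not tested. Without both, the median log2 fold change of the 9 genes was 0.094 and that of Lrpprc 0.40. Male expression without Xist was seen in Parkin KO libraries alone, so the sexes are not balanced between the groups. Of 10 cardiomyocyte markers none was at 0, and their summed level was 80897 to 114128 CPM in noninduced and 103137 to 120667 CPM among Parkin KO libraries. The fitted log2 fold change was above 0 for 9 of them and below 0 for 1. Only Pln (0.30) stood at an unadjusted p under 0.05, and none passed (edgeR). The 6 atrial markers summed to 121 to 5987 CPM in noninduced libraries, where libraries 2, 5 and 6 were highest, and 158 to 1547 CPM among Parkin KO libraries. All 6 atrial markers had a fitted log2 fold change below 0, from -5.39 for Bmp10 to -1.88 for Nppa, each at an unadjusted p under 0.05 and none passing (edgeR). Also below 0 at an unadjusted p under 0.05 were 2 of 7 smooth muscle markers, Tagln (-0.67) and Cnn1 (-1.06), 2 of 9 macrophage markers, Cd68 (-0.43) and C1qb (-0.32), and 1 of 3 tested lymphocyte markers, Ptprc (-0.36). Of all genes tested, 5.54% were lower in Parkin KO at an unadjusted p under 0.05 (edgeR). Above 0 were 2 of the 7 smooth muscle, 3 of the 9 macrophage and 0 of the 3 lymphocyte markers. The part of these differences between libraries in the results on the 9 genes was not tested beyond the values without single libraries or pairs given here. In tissue of many cell types, fewer cells of a type and less RNA per cell cannot be told apart.

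None of the 9 genes passed the test between Parkin KO and noninduced hearts. The messenger that stood farthest from 0 by its p was Lrpprc, with means of 74.1 ± 11.8 CPM over the noninduced and 98.7 ± 16.02 CPM over the Parkin KO hearts (SD, n = 6 each), and 4 of its 6 Parkin KO libraries lay above every noninduced library. The transcription factors Tfam and Tfb2m had fitted log2 fold changes of 0.05 and 0.06, and Tfb1m, which methylates ribosomal RNA, of 0.0015. All 9 genes passed the low-count filter. After Benjamini-Hochberg adjustment of the quasi-likelihood p from edgeR, 0 of them were called, as were 0% of 13050 genes tested. DESeq2 called 0 of them and 0.0608% of 16436 genes. At an unadjusted p under 0.05 stood 1 of 9 (11.1%), against 11.4% of all genes, so this share is that of the background. Groups did not overlap for 0 of the 9 genes and for 0.345% of all genes. The fitted log2 fold change was above 0 for 8 of the 9 genes, against 52% of all genes. Other lists leaned the same way: 42 of 58 tested genes of the 5 pathway lists were above 0 and 16 below. Of 10 cardiomyocyte markers, 9 were above 0, with a median of 0.12, while 4 of 8 endothelial and 2 of 8 fibroblast markers were. The median of the 9 was 0.12, against 0.01 over all genes tested, and it was 0.02 without noninduced libraries 1 and 2.

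**Figure D2:**
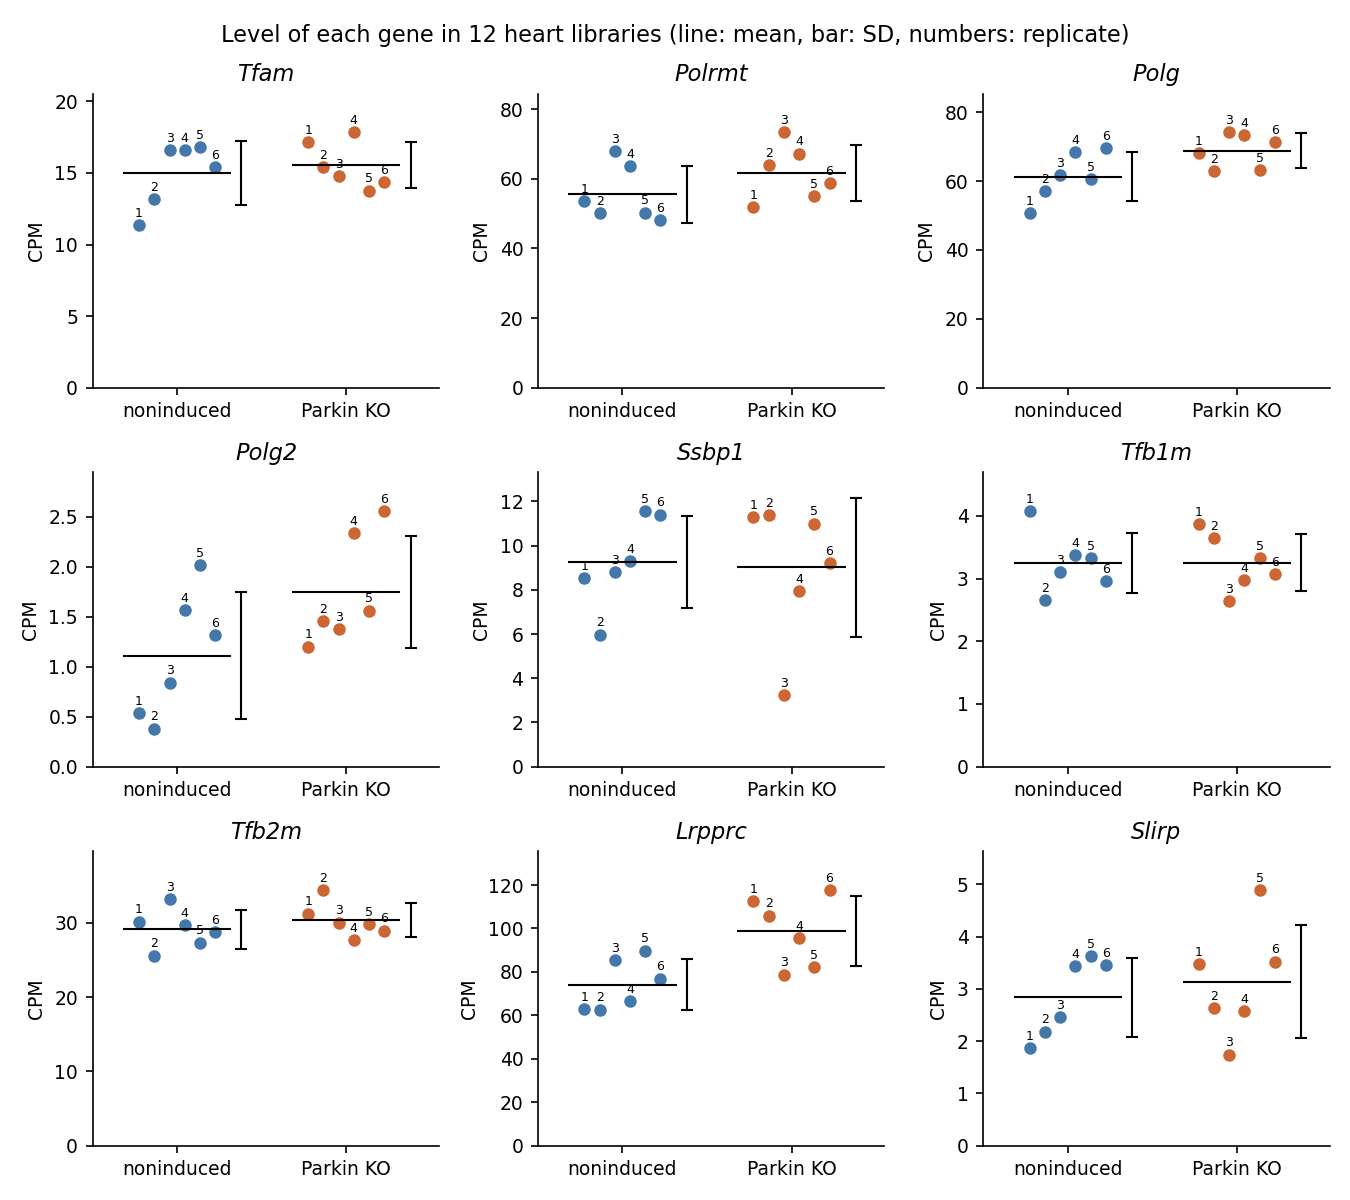
CPM of each gene in the 6 noninduced (blue) and 6 Parkin KO (orange) libraries, with replicate numbers, the group mean (line) and SD (bar); each axis starts at 0. The groups overlap for all 9 genes, and Lrpprc has 4 Parkin KO libraries above the highest noninduced value of 89.8 CPM.

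Among the genes of mtDNA copying, Polg, the catalytic subunit of the replicative polymerase, lies on chromosome 7 from 79446231 to 79466362 (minus strand, GRCm38). Polg ran from 50.8 through a median of 61.1 to 69.5 CPM in noninduced libraries and from 62.8 through 69.7 to 74.3 CPM among Parkin KO libraries. All 6 Parkin KO libraries lay above the noninduced mean, and 3 of them above the highest noninduced library. Its log2 fold change was 0.17 ± 0.086 (SE), with a 95% interval of -0.018 to 0.35 (edgeR, adjusted p = 0.448), and 0.07 without noninduced libraries 1 and 2. Exons of Fanci on the opposite strand cover 8.57% of its exon bases, and the libraries do not keep strand.

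Polg2, the accessory subunit that helps the polymerase stay on its template, was the scarcest of the 9 and lies on chromosome 11 from 106768253 to 106779537 (minus). It had 4 to 34 reads per noninduced library and 18 to 40 per Parkin KO library, which is 0.379 to 2.02 CPM with a median of 1.08 and 1.20 to 2.56 CPM with a median of 1.51. Noninduced libraries 1, 2 and 3 were the 3 lowest. The log2 fold change of Polg2, at 0.60 ± 0.334 (SE), had the widest interval of the 9, from -0.111 to 1.31 (edgeR, adjusted p = 0.470). It was 0.27 without noninduced libraries 1 and 2.

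Ssbp1, which coats single-stranded mtDNA during copying, lies on chromosome 6 from 40471352 to 40484700 (plus). It ran from 5.97 through 9.05 to 11.6 CPM among noninduced and from 3.24 through 10.1 to 11.4 CPM among Parkin KO libraries. Parkin KO library 3, with 54 reads, lay below all others, whose lowest Parkin KO value was 7.94 CPM. The log2 fold change was -0.05 ± 0.245 (SE, 95% interval -0.576 to 0.470; edgeR, adjusted p = 0.936), and its sign changed without Parkin KO library 3 (0.11), noninduced library 5 (0.0095) or noninduced library 6 (0.0048).

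Of the transcription genes, Polrmt, the mitochondrial RNA polymerase, lies on chromosome 10 from 79736123 to 79746581 (minus). It ran from 48.1 through 51.9 to 67.9 CPM among noninduced and from 51.8 through 61.3 to 73.5 CPM among Parkin KO libraries, and 5 of 6 Parkin KO libraries lay above the noninduced median. Its log2 fold change was 0.15 ± 0.109 (SE, 95% interval -0.082 to 0.383; edgeR, adjusted p = 0.573). It was 0.08 without Parkin KO library 3, the library of highest Polrmt.

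Tfam, which bends and packages mtDNA and opens its promoters, lies on the same chromosome from 71225464 to 71238280 (minus). It ran from 11.4 through 15.99 to 16.8 CPM among noninduced and from 13.8 through 15.1 to 17.9 CPM among Parkin KO libraries. Noninduced libraries 1 and 2, at 11.4 and 13.2 CPM, were the lowest of all 12. The log2 fold change was 0.05 ± 0.112 (SE), and its 95% interval of -0.188 to 0.288 spans 0.878 to 1.22 times the noninduced level (edgeR, adjusted p = 0.865).

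Tfb2m, the factor that melts mitochondrial promoters with Polrmt, lies on chromosome 1 from 179528055 to 179546267 (minus). It ran from 25.6 through 29.2 to 33.2 CPM among noninduced and from 27.7 through 29.9 to 34.4 CPM among Parkin KO libraries. This was the narrowest interval of the 9, from -0.116 to 0.235 around a log2 fold change of 0.06 ± 0.0821 (SE; edgeR, adjusted p = 0.769), which spans 0.923 to 1.18 times the noninduced level. Tfb1m, its paralog that modifies the small ribosomal RNA, lies on chromosome 17 from 3519256 to 3557781 (minus). It ran from 2.65 through 3.22 to 4.08 CPM among noninduced and from 2.64 through 3.20 to 3.87 CPM among Parkin KO libraries. Its group means were 3.25 and 3.26 CPM, with a 95% interval of -0.307 to 0.310 on the log2 scale (edgeR, adjusted p = 0.998).

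Of the genes of RNA stability, Lrpprc lies on chromosome 17 from 84705247 to 84790789 (minus), and its loss is known to deplete mitochondrial messengers. Lrpprc ran from 62.7 through 71.8 to 89.8 CPM among noninduced and from 78.7 through 101 to 118 CPM among Parkin KO libraries. Every Parkin KO library lay above the noninduced mean, and Parkin KO libraries 3 and 5 lay within the noninduced range. The log2 fold change was 0.41 ± 0.124 (SE), with a 95% interval of 0.150 to 0.678 and an unadjusted p of 0.00449, the 126th smallest of 13050 genes, and it did not pass (edgeR, adjusted p = 0.417). Over 24 other settings the log2 fold change stayed above 0, from 0.30 without noninduced libraries 1 and 2 to 0.47 without noninduced library 5, with unadjusted p between 0.00201 and 0.0394 and adjusted p between 0.223 and 0.949. It was 0.41 among libraries with no male expression (edgeR, adjusted p = 0.844). The part of the cardiomyocyte marker level, which was lowest in noninduced library 6, was not tested.

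Slirp, the small RNA-binding partner that stabilises Lrpprc, lies on chromosome 12 from 87443896 to 87452206 (plus). It had 21 to 63 reads per noninduced library, or 1.86 to 3.62 CPM, and 29 to 69 reads per Parkin KO library, or 1.74 to 4.89 CPM. The lowest and the highest library were both Parkin KO, replicates 3 and 5. The log2 fold change of Slirp was 0.12 ± 0.240 (SE, 95% interval -0.390 to 0.634; edgeR, adjusted p = 0.846), with a change of sign without noninduced libraries 1 and 2. Counts of Slirp are uncertain, as exons of Snw1 and Alkbh1 on the opposite strand cover 97.8% of its annotated exon bases. The deposited FPKM values, which divide by length, put Slirp at 25.1 to 67.6, and together with its counts they imply a counted length of 65.7 bases, against 935 to 4614 bases for the other 8 genes.

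**Figure D3:**
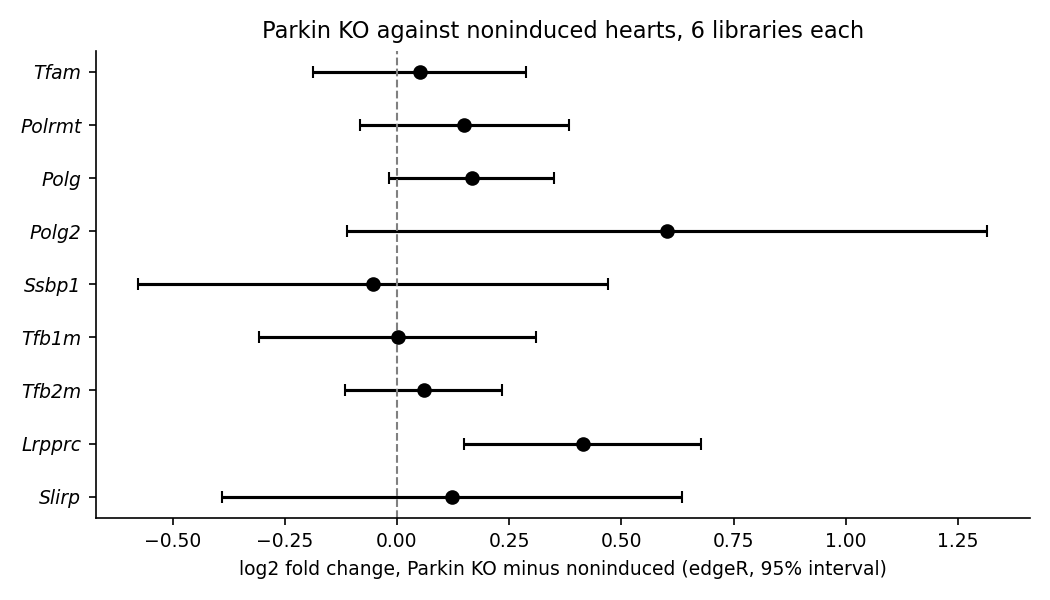
Log2 fold change of each gene, Parkin KO minus noninduced, with its 95% interval from edgeR (6 libraries a group). The interval of Lrpprc, 0.150 to 0.678, lies above 0, those of the other 8 genes include 0, and no gene passed after adjustment.

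On the length-corrected FPKM scale over all 12 libraries, the order of the levels was Slirp at 46.1 ± 14.2, Lrpprc at 18.8 ± 4.40, Polrmt at 15.8 ± 2.39, Polg at 15.4 ± 2.22, Tfb2m at 12.7 ± 1.12, Ssbp1 at 9.83 ± 2.95, Tfam at 3.96 ± 0.635, Tfb1m at 2.83 ± 0.385 and Polg2 at 1.11 ± 0.525 FPKM (SD, n = 12). Polrmt and Polg were not ordered, since Polrmt was higher in 6 of 12 libraries, and Lrpprc exceeded Polrmt in 9. The other neighbours kept their order in 11 or 12 libraries. The place of Slirp rests on the uncertain length correction described above. The catalytic subunit Polg stood at 9.88 to 45.8 times its accessory subunit Polg2 in noninduced libraries, with a median of 18.7, and at 8.27 to 18.2 times in Parkin KO libraries, with a median of 11.8, on the FPKM scale. Tfb2m stood at 3.49 to 5.26 times Tfb1m in noninduced and 3.93 to 5.48 times in Parkin KO libraries.

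The spread between noninduced hearts differed among the genes. Tfb2m had a coefficient of variation of 8.86%, Polg of 11.5%, and Polrmt, Tfb1m, Tfam and Lrpprc of 14.7 to 15.9%. Ssbp1, Slirp and Polg2 had 22.4%, 26.7% and 57.2%. Of the 500 tested genes nearest in level to Polg2, 91.8% had a lower coefficient of variation, and of those nearest to Tfb1m 16.2% did. Noninduced library 2 was among the 3 lowest libraries for all 9 genes and noninduced library 1 for 5 of them, although library sizes were scaled.

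The products of this machinery, the 13 messengers of mtDNA, made up 10.3 ± 4.06% of noninduced libraries and 7.11 ± 1.65% of Parkin KO libraries (SD, n = 6 each). The difference of -3.21 percentage points did not pass (exact two-sided permutation p = 0.115, where 0.00216 is the smallest p that 924 splits allow; adjusted p = 0.229 over 2 library measures), and it was -0.714 without noninduced libraries 1 and 2. All 13 had a fitted log2 fold change below 0, from -0.91 for mt-Nd2 to -0.37 for mt-Co2, and 0 passed (edgeR). At an unadjusted p under 0.05 stood 8 of the 13, against 5.54% of all genes that were lower at this p. Of 13050 genes tested, 6267 were below 0. The 13 messengers come from the same genome and libraries, so they are not separate observations. Among them mt-Atp8, a subunit of ATP synthase, was at -0.76 ± 0.264 (SE) and mt-Cytb, the cytochrome of the bc1 complex, at -0.78 ± 0.301.

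Polg was lower in libraries with more mtDNA-encoded messenger. Across the 12 libraries, log2 CPM of Polg and the mean log2 CPM of the 13 messengers had a Pearson r of -0.909 (permutation p = 5e-05, adjusted p = 0.0005 over 10 relations) and a Spearman rho of -0.909 (permutation p = 0.00015, adjusted p = 0.0015). Without noninduced libraries 1 and 2, which are also the 2 farthest from the median of Polg, r was -0.805 (permutation p = 0.00495, adjusted p = 0.0495). Within the noninduced group r was -0.875 (exact permutation p = 0.0278, adjusted p = 0.0799, n = 6) and within the Parkin KO group -0.921 (exact permutation p = 0.0139, adjusted p = 0.0694, n = 6). With library sizes taken from nuclear genes alone for Polg, and unchanged for the messengers, r was -0.906. Among 13037 tested genes other than these messengers, 0.606% had an r as low, and 21 genes (0.161%) were as low in both groups. These points share libraries and depth, and the share of mtDNA reads enters the library size of every gene.

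Polg2 had an r of -0.850 with the same messengers (permutation p = 0.00121, adjusted p = 0.00605; Spearman rho -0.692, permutation p = 0.0162, adjusted p = 0.0809). This relation rests on noninduced libraries 1 and 2, without which r was -0.484 (permutation p = 0.155). Among all genes, 2.45% had an r as low as that of Polg2, and 13.2% without these libraries. Within groups r of Polg2 was -0.942 in noninduced (exact permutation p = 0.0111, adjusted p = 0.0556, n = 6) and -0.236 in Parkin KO libraries (exact permutation p = 0.657, n = 6). Tfam, at r = -0.685 (permutation p = 0.0153, adjusted p = 0.051; rho -0.497, permutation p = 0.104), was at -0.053 without them, and 11.01% of genes had an r as low over all 12 libraries. The other 6 genes had r between -0.449 for Lrpprc and 0.266 for Tfb1m, and 0 of them passed. Lrpprc and Slirp, whose proteins form a complex, had an r of 0.372 with each other (permutation p = 0.232, adjusted p = 0.386; rho 0.490, permutation p = 0.111), and 0.238 without Parkin KO libraries 1 and 6. Within groups this r was 0.562 in noninduced (exact permutation p = 0.207, n = 6) and 0.256 in Parkin KO libraries (exact permutation p = 0.614, n = 6).

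**Figure D4:**
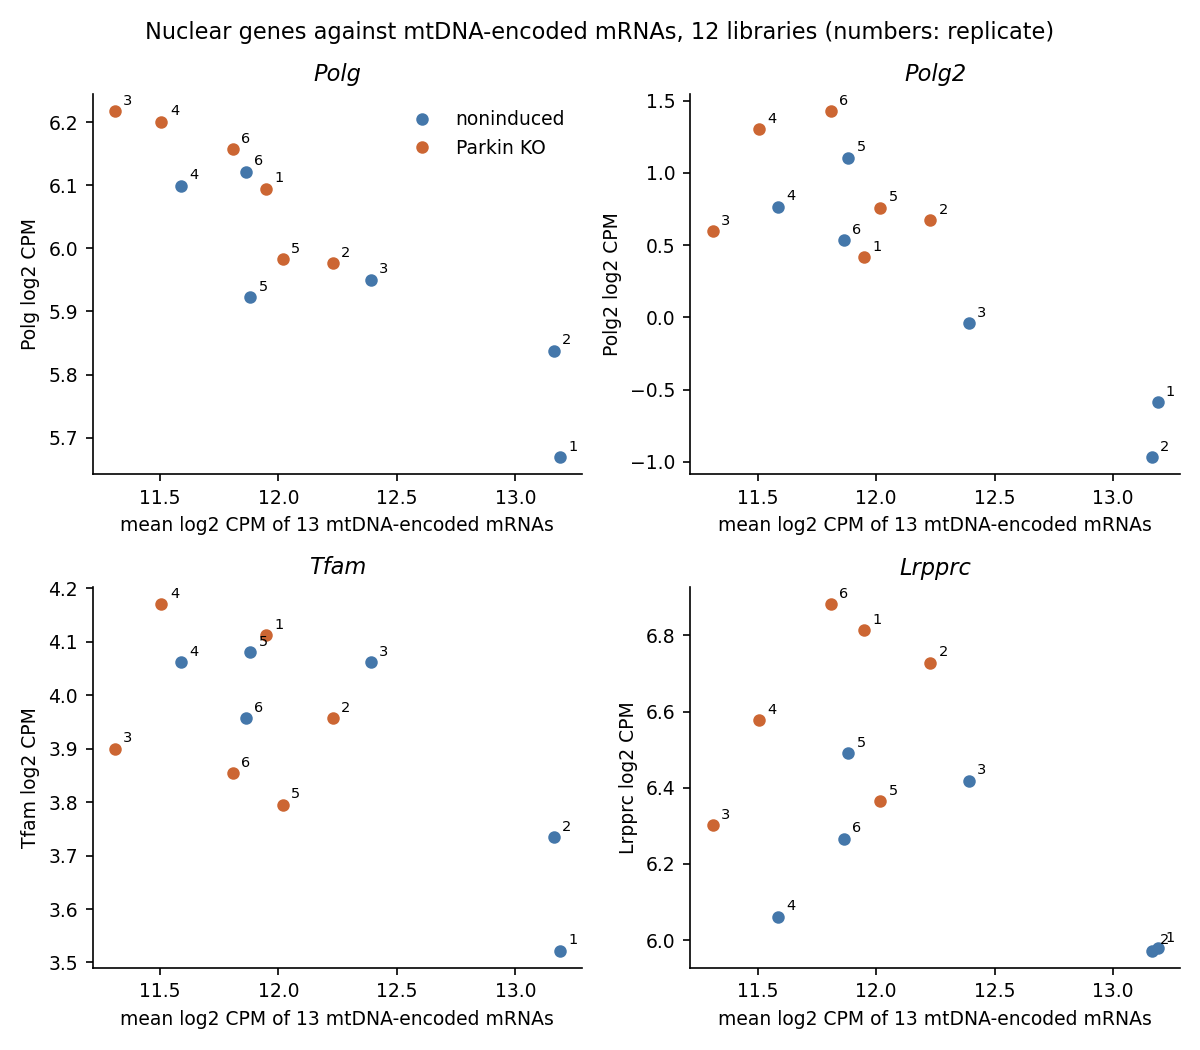
Log2 CPM of Polg, Polg2, Tfam and Lrpprc against the mean log2 CPM of 13 mtDNA-encoded messengers in 12 libraries, with replicate numbers (blue noninduced, orange Parkin KO). Noninduced libraries 1 and 2 lie at the far right of each panel; only Polg, of these 4, keeps an adjusted p under 0.05 without them (r = -0.805).

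The genes whose pattern over the 12 libraries was most like that of each gene, by Pearson r of log2 CPM, are given as a description. Polg was nearest to Pwp2 (r = 0.956) and Rps6kc1 (0.947), Polg2 to Mib1 (0.964) and Srp9 (0.956), and Ssbp1 to Cep290 (0.971) and Luc7l3 (0.962). Polrmt was nearest to Ptges2 (0.929) and Lsm14b (0.927), Tfam to Nup93 (0.894) and Prmt10 (0.893), Tfb2m to Dnajc16 (0.864) and Mapkapk5 (0.863), and Tfb1m to Rnf219 (0.836) and Atad2b (0.825). Lrpprc was nearest to Fam60a (0.941) and 2010315B03Rik (0.906), and Slirp to Rpl23 (0.926) and Glod4 (0.919).

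Of the other genes of the pathway, taken from 5 lists of 60 genes, 58 were tested and 0 passed (edgeR). At an unadjusted p under 0.05 there were 4 higher and 2 lower in Parkin KO, against 5.82% and 5.54% of all genes, and the median log2 fold change was 0.09. The 13 genes of mtDNA maintenance had a median of 0.21, with 9 above 0 and 4 at an unadjusted p under 0.05, all higher. These were Top3a, a topoisomerase that separates daughter genomes (0.27 ± 0.107, SE), Lonp1, the matrix protease that degrades Tfam (0.20 ± 0.0853), Atad3a, a nucleoid-associated membrane ATPase (0.26 ± 0.116), and Dna2, a nuclease and helicase with 5 to 30 reads per library (0.53 ± 0.245). Lonp1 averaged 166 ± 19.7 CPM over noninduced and 192 ± 10.6 CPM over Parkin KO hearts (SD, n = 6 each; edgeR, adjusted p = 0.424). Twnk, the replicative helicase, counted under its older symbol Peo1, was at 36.4 ± 1.89 and 38.4 ± 2.17 CPM, with a log2 fold change of 0.08 ± 0.0688 (SE).

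The 11 genes of nucleotide supply had a median of 0.10, and 0 stood at an unadjusted p under 0.05 (edgeR). The smallest p were those of Nme4, a nucleoside diphosphate kinase (-0.28 ± 0.152, SE), Tk2, the mitochondrial thymidine kinase (0.23 ± 0.149), and Slc25a36, a pyrimidine nucleotide carrier (0.20 ± 0.148). For elongation and termination 5 of 7 genes were tested, with a median of 0.11. Here the elongation factor Tefm was at 0.15 ± 0.0925 (SE), Mterf2 at 0.34 ± 0.201 and Mterf4, which guides ribosome assembly, at -0.15 ± 0.106, and 0 stood at an unadjusted p under 0.05. The 20 genes of RNA processing and stability had a median of 0.04, with 1 at an unadjusted p under 0.05, Fastkd5, a processing factor for messengers without flanking transfer RNAs (-0.48 ± 0.190, SE). Grsf1, of the RNA granules, was at 0.12 ± 0.0745 and Fastkd3 at 0.20 ± 0.136.

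Among 9 nuclear regulators of mitochondrial biogenesis the median was 0.06 and 0 passed (edgeR). Nrf1 was at 0.16 ± 0.112 (SE), and Gabpa, the ETS subunit of GABP, at 0.11 ± 0.0978. The estrogen-related receptor Esrra was at 0.18 ± 0.0992, the coactivators Ppargc1a at -0.10 ± 0.252 and Ppargc1b at -0.09 ± 0.159, and the related Pprc1 at -0.33 ± 0.142. Pprc1 was the only regulator with an unadjusted p under 0.05 (edgeR, adjusted p = 0.424). Its mean was 52.5 ± 12.1 CPM over noninduced and 41.8 ± 6.08 CPM over Parkin KO hearts (SD, n = 6 each).

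**Figure D5:**
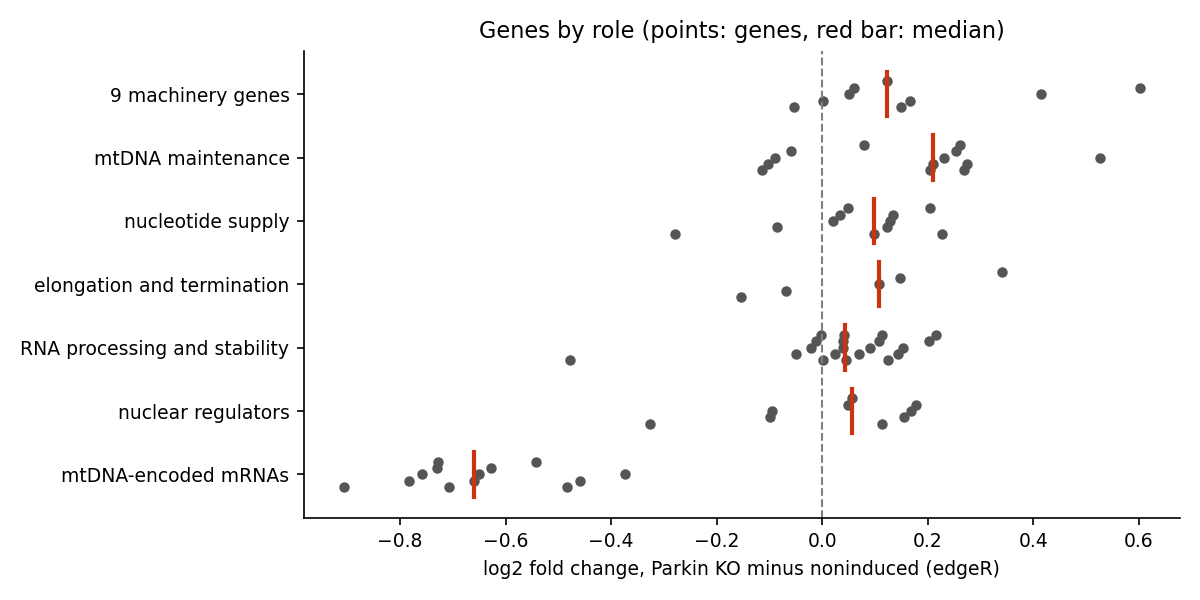
Fitted log2 fold change, Parkin KO minus noninduced, of every tested gene of each role (grey points) with the median (red bar). The nuclear lists have medians between 0.04 and 0.21 and the 13 mtDNA-encoded messengers lie between -0.91 and -0.37; no gene passed after adjustment.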

How the data were processed

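Per the submitters' processing notes, reads were handled with Bowtie2, TopHat2 2.0.10 and HTSeq on build mm10, and the authors deposited whole-number counts per gene symbol. The deposited FPKM table was made by the authors, with Cufflinks 2.1 among the tools named. Per the labels' protocols libraries were single-end and kept no strand, while annotation and counting mode were not stated. Control columns carry a wild-type abbreviation and were assigned by number to noninduced hearts. Of 37 rows with Ensembl identifiers, all were matched to symbols.

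Counts were tested in R 4.3.3 with edgeR 4.0.16 (TMM, filterByExpr, quasi-likelihood F test, two-sided, group term alone), which kept 13050 genes. P-values were adjusted over all of them (Benjamini-Hochberg, threshold 0.05), and standard errors and 95% intervals were derived from the F statistic. The fit was tested on simulated data. Alternatives used DESeq2 1.42.0, limma 3.58.1 and log2(FPKM + 0.1), which understates changes of low genes. For log2 CPM a prior count of 2 was used, and permutation tests of relations used 100000 resamples or, within groups, all orders. The labels do not say whether each library is a separate animal, so p-values measure the spread between these samples. No 2 libraries of a group agreed within sampling noise (chi-square per degree of freedom at least 11.1).

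Positions come from GENCODE on GRCm38, the assembly that mm10 names, and promoters from RefSeq on GRCm38.p6. Named are all 9 genes, the 3 of smallest p of each pathway list, fixed regulators (Twnk, Lonp1, Tefm, Nrf1, Gabpa, Esrra, Ppargc1a, Ppargc1b and Pprc1), Esr1 and the 2 most alike genes of each. Dna2, mt-Co2 and the cell type markers Pln, Bmp10, Nppa, Tagln, Cnn1, Cd68, C1qb and Ptprc fall outside this rule and were named after their values were seen. Members and lists were chosen with earlier results of these data known. The targeted gene itself is not reported here.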

Additional observations from a re-analysis of the deposited data

How the results depend on the processing

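Over 24 alternatives to the edgeR fit, 0 of the 9 genes passed after adjustment. The median log2 fold change of the 9 genes ran from 0.02 without noninduced libraries 1 and 2, chosen after seeing the data, to 0.18 among female libraries, and from 0.05 to 0.17 on leaving out 1 library. Over all genes DESeq2 called 10 and the fit without noninduced libraries 1 and 3 called 1, and the other settings called 0. Genes at an unadjusted p under 0.05, 1483 in all libraries, numbered 932 to 2131 on leaving out 1 library (932 without noninduced 2, 944 without Parkin KO 6, 972 without noninduced 1), 992 without noninduced libraries 1 and 3, 632 without noninduced libraries 1 and 2 and 628 among female libraries.

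Signs changed for 4 genes, none of them called. Tfb1m was at -0.017 with DESeq2 size factors, -0.016 with DESeq2, -0.018 without mtDNA-encoded genes, at -0.0028 with limma-voom and with a replicate block, and at -0.053 among female libraries. Slirp was at -0.19 among female libraries, -0.049 without noninduced libraries 1 and 3 and -0.066 without 1 and 2, and Tfam at -0.010 and -0.082 without these pairs. On leaving out 1 library, Tfb1m ran from -0.063 to 0.057, Slirp from -0.045 to 0.24, Tfam from -0.030 to 0.083 and Ssbp1 from -0.16 to 0.11. The cause was not tested.

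Of 10 relations, 2 passed by Pearson r in all libraries, 0 within noninduced, 1 within Parkin KO and 1 without noninduced libraries 1 and 2. By Spearman rho only that of Polg passed in all libraries and without noninduced libraries 1 and 2 (permutation test, adjusted p = 0.0394). Within Parkin KO, too, only Polg passed by rho (-1, exact permutation p = 0.00278, adjusted p = 0.0278, n = 6), and within noninduced no relation did. Signs changed for Ssbp1 within noninduced (r = -0.761). They changed for Tfb2m with library sizes of nuclear genes, used for Tfb2m but not the messengers (0.0337). Within Parkin KO (0.683) and without noninduced libraries 1 and 2 (0.637) the sign of Tfb2m changed too. In these last 2 settings signs also changed for Lrpprc (0.468 and 0.298) and Slirp (0.638 and 0.298). The difference in the share of mtDNA-encoded counts ran, on leaving out 1 library, from -4.03 percentage points without noninduced replicate 4 (exact permutation p = 0.0476, not adjusted over the 2 library measures) to -2.19 without noninduced replicate 2. It was -4.31 among female libraries, -2.07 without noninduced libraries 1 and 3 and -0.714 without 1 and 2.

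The replicate block left 0 genes called, 1700 at an unadjusted p under 0.05, a median of 0.11 for the 9 genes and -3.21 percentage points for the mtDNA share. Same-numbered libraries had correlations of -0.0991 to 0.166, and 2 of 12 libraries correlated best with their own number, so the numbers were not taken as pairs. Depth limits Polg2 and Slirp most, with 4 to 40 and 21 to 69 reads per library.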

Other observations

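Ssbp1, Slirp, Lrpprc and Tfb2m each had an r of opposite sign with mtDNA-encoded messengers in the groups. For Ssbp1 it was 0.871 within Parkin KO libraries (exact permutation p = 0.00417, adjusted p = 0.0417 over 10 relations, n = 6; Spearman rho 0.943, adjusted p = 0.0833) and -0.761 within noninduced libraries (exact permutation p = 0.0694, adjusted p = 0.139, n = 6). For Slirp it was 0.638 within Parkin KO (exact permutation p = 0.172, adjusted p = 0.287, n = 6) and -0.954 within noninduced libraries (exact permutation p = 0.0111, adjusted p = 0.0556, n = 6). For Lrpprc r was 0.468 within Parkin KO and -0.541 within noninduced libraries, and for Tfb2m 0.683 and -0.160. Tfb1m was at 0.870 within Parkin KO (exact permutation p = 0.0264, adjusted p = 0.0880, n = 6) and at 0.063 within noninduced libraries. None of these values of Lrpprc, Tfb2m and Tfb1m passed. The differences between the groups were not tested. Over the 10 libraries of both groups without noninduced 1 and 2, r of Ssbp1 was 0.648. It was -0.0088 when Parkin KO libraries 3 and 4 were also left out. As these values pool both groups, they do not show whether the relation within Parkin KO rests on single libraries, which was not tested. Parkin KO library 3, at 3.24 CPM of Ssbp1 and the lowest mtDNA share of all 12 libraries, 4.79%, was also the lowest library for Tfb1m and Slirp and the highest for Polrmt and Polg.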
